A study of Mus musculus with 46 samples.

Results

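The comparison set AML12 cells carrying an inducible hairpin labelled shLinc against AML12 cells carrying an inducible control hairpin, shCtrl, in the state labelled restored, after doxycycline had been taken away. The 6 libraries, 3 of each hairpin, were chosen by their titles out of 46 in the series. Genes were described where their mean value over these 6 libraries was at least 3, which held for 9976 of the 55774 genes in the deposited table. AML12 is an established line of mouse hepatocytes. The shLinc hairpin is taken here as the hairpin against Falcor, from the tag that the labels give these samples. Falcor is a long noncoding RNA of endoderm, listed as 9030622O22Rik, and the series asked what part it has in nuclear speckles, which are bodies that store splicing factors. The same lines were also sampled without doxycycline and with doxycycline, 3 libraries for each hairpin and state, and those 12 libraries entered the fit and serve as points of comparison. No label names more than 1 line for a hairpin, so a difference between hairpins cannot be told apart from a difference between lines. Neither the time on doxycycline nor the time after withdrawal is given in the sources used here.

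As background, doxycycline switches on a hairpin placed behind a tetracycline-responsive promoter, and withdrawal lets the hairpin and its effect decay, so that the targeted RNA can return. Hepatocytes make most plasma proteins, run cholesterol and fat metabolism, and take up amino acids under the control of ATF4, the transcription factor of the integrated stress response. Grown on plastic, hepatocytes lose part of this program and take on growth and cytoskeletal genes driven by YAP with TEAD factors, by SRF and by AP-1. FOXA2 is a pioneer factor of liver and other endoderm, and Falcor lies beside its gene.

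The targeted RNA comes first. Falcor is annotated on the minus strand of chromosome 2 from 147944740 to 148040203 (GRCm38, GENCODE M21), next to Foxa2, which runs on the same strand from 148042877 to 148046969. Falcor was at 11, 9 and 11 in shLinc, against 5, 4 and 5 in shCtrl. All 3 shLinc libraries lay above all 3 shCtrl libraries (log2 fold change 0.89 ± 0.14 SE, limma adjusted p = 4.63e-05; 9030622O22Rik). After withdrawal Falcor was higher in the line with the hairpin labelled for it, on a scale of whole numbers where a step of 1 is a large part of the value. With doxycycline the order was the other way, at 2, 2 and 3 in shLinc libraries against 5, 4 and 5 in shCtrl libraries. Without doxycycline the values were 12, 9 and 10 in shLinc libraries against 4, 6 and 5 in shCtrl libraries. Foxa2 was at 74, 72 and 76 in shLinc, against 63, 63 and 63 in shCtrl; after scaling the difference was small (log2 fold change 0.10 ± 0.035 SE, limma adjusted p = 0.0173), and with no scaling between libraries it was 0.23. Zc3h11a, whose protein takes part in mRNA export and was studied in the same series, was at 20, 17 and 17 in shLinc, against 15, 14 and 15 in shCtrl and was not called (log2 fold change 0.16 ± 0.067 SE, limma adjusted p = 0.0562). It was called higher with no scaling, with median-of-ratios scaling and with a replicate block, so its call depends on the setting.

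Across the 9976 genes, the hairpins differed at 5770, or 57.8%, at a limma adjusted p below 0.05, with 2882 genes higher in shLinc (28.9%) and 2888 lower (28.9%). Most differences were small: the median absolute log2 fold change over all genes was 0.25, and 286 genes, 2.87%, were called and changed by at least 2-fold, 157 of them higher and 129 lower. Replicates lay close together: the median SD over genes was 0.0586 on the log2 scale in shLinc libraries and 0.0605 in shCtrl libraries. After scaling between libraries, the 3 values of one hairpin did not overlap those of the other in 7033 genes, or 70.5%. Separate groups are thus the usual case here. All 3 replicates were identical for 11.4% of genes in shLinc and 13.5% in shCtrl. The labels do not say that replicates came from separate cultures, and the p-values then rest on a spread between libraries that may be technical. Scaling mattered for the balance of directions: with no scaling the median log2 fold change of all genes was 0.133 in place of 0.012, and 67.4% of calls were higher in place of 49.9%, so differences of about 0.1 carry no sure direction. In what follows, library values are the deposited whole numbers in replicate order, and numbers in brackets or written with ± are log2 fold changes of shLinc over shCtrl with their SE; all genes said to rise or fall had a limma adjusted p below 0.05. In bulk RNA, fewer cells of a type and less RNA per cell cannot be told apart, and every value is a share of the RNA in its library.

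The largest increases were led by Agt, the gene of angiotensinogen, a liver-made hormone precursor, at 68, 70 and 69 in shLinc, against 7, 8 and 8 in shCtrl (log2 fold change 2.89 ± 0.084 SE, limma adjusted p = 5.76e-14). Ppp1r1b, which encodes a phosphatase inhibitor, was at 61, 61 and 62 in shLinc, against 8, 7 and 7 in shCtrl (2.78 ± 0.14, adjusted p = 8.43e-11). Mmp7, the epithelial matrix protease matrilysin, was at 26, 30 and 27 in shLinc, against 3, 3 and 5 in shCtrl (2.53 ± 0.17, adjusted p = 1.48e-09). These 3 genes had values several times higher in shLinc. The epithelial transcription factor gene Ehf was at 45, 41 and 49 in shLinc, against 6, 6 and 8 in shCtrl (2.47 ± 0.15, adjusted p = 1.19e-09). C4b, of complement, was at 12, 12 and 12 in shLinc, against 1, 2 and 1 in shCtrl (2.40 ± 0.25), a fold that rests on values of 1 and 2 in the control line. Pdcd4, an inhibitor of translation initiation, was at 46, 46 and 48 in shLinc, against 8, 9 and 9 in shCtrl (2.18 ± 0.071). Among the 15 largest increases were also Txnip, the thioredoxin-binding arrestin that restrains glucose uptake, at 39, 42 and 41 in shLinc, against 9, 8 and 9 in shCtrl (1.99 ± 0.06). Atp1b1, a sodium pump subunit, was at 248, 236 and 249 in shLinc, against 66, 62 and 66 in shCtrl (1.77 ± 0.031). The others were Ndrg2 (2.08), Sema4g (2.06), Akr1b7 (1.91), Adgrg1 (1.86), Vnn3 (1.86), Keg1 (1.79) and Zhx3 (1.73).

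The largest decreases were led by Ccn2, the matricellular protein gene known as connective tissue growth factor, at 145, 144 and 149 in shLinc, against 743, 742 and 731 in shCtrl (log2 fold change −2.46 ± 0.026 SE, limma adjusted p = 8.56e-20). Adam8, a membrane protease gene, was at 3, 3 and 4 in shLinc, against 18, 17 and 17 in shCtrl (−2.19 ± 0.094). Tnnt2, which encodes a troponin of the sarcomere, was at 6, 6 and 6 in shLinc, against 27, 26 and 28 in shCtrl (−2.11 ± 0.085). These 3 genes were several times lower in shLinc. The AP-1 subunit gene Fosl1 was at 16, 15 and 16 in shLinc, against 68, 64 and 58 in shCtrl (−2.07 ± 0.051). The chemokine gene Ccl20 was at 55, 43 and 52 in shLinc, against 170, 169 and 161 in shCtrl (−1.85 ± 0.078). Etv4, an ETS factor induced by growth factor signals, was at 9, 10 and 8 in shLinc, against 29, 33 and 31 in shCtrl (−1.80 ± 0.094). Ccn1, a relative of Ccn2, was at 35, 34 and 35 in shLinc, against 105, 105 and 105 in shCtrl (−1.70 ± 0.027). Tigit, a receptor known from lymphocytes, was at 8, 8 and 8 in shLinc, against 42, 45 and 45 in shCtrl (−2.44 ± 0.055), while the other 9 lymphocyte markers were below the mean of 3. The remaining genes of the 15 largest decreases were Mettl7b (−2.41), the long noncoding RNA Mirt1 (−1.97), Acsbg1 (−1.92), Dlk2 (−1.87), Mab21l4 (−1.87), Tnfrsf21 (−1.77) and Ccbe1 (−1.70).

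**Figure D1:**
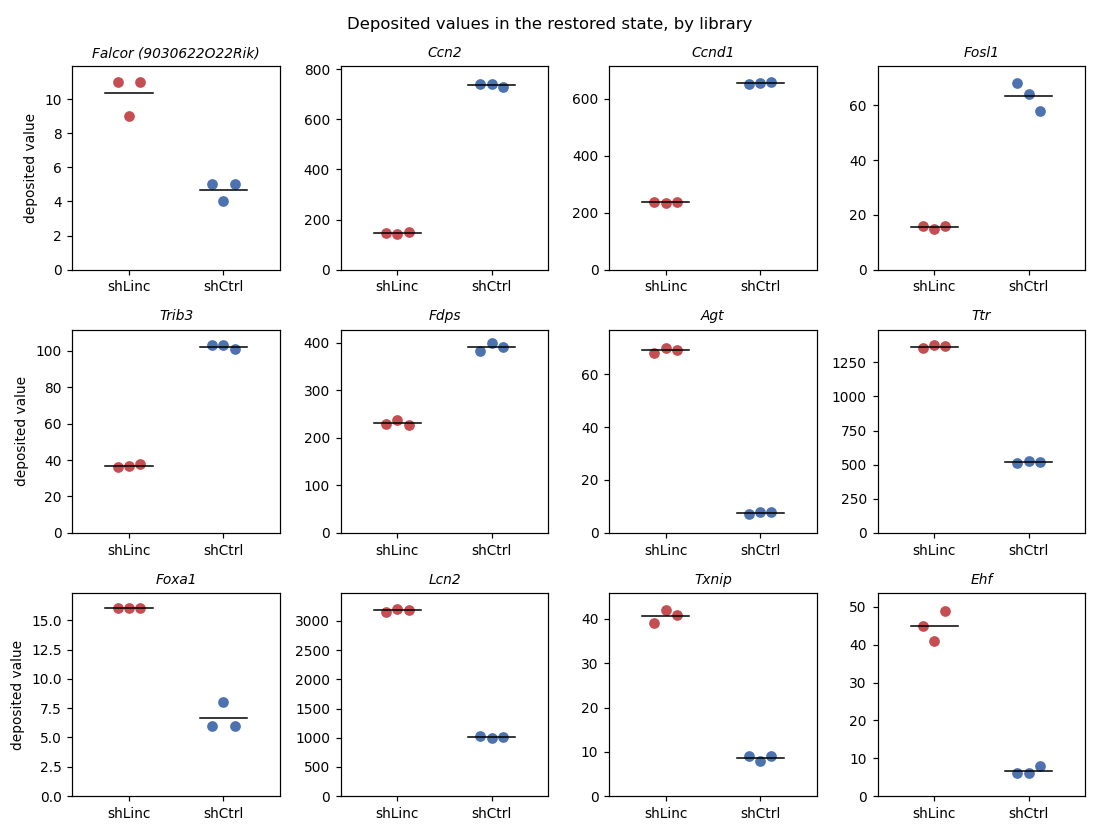
Deposited whole-number values (vertical axis, starting at 0) of 12 genes in the restored state, shLinc libraries left and shCtrl libraries right; each point is 1 library and the line is the mean of 3. Agt lies at 68 to 70 in shLinc and 7 to 8 in shCtrl, and Ccn2 at 144 to 149 in shLinc and 731 to 743 in shCtrl. In values scaled between libraries, which are not those plotted, groups that do not overlap were found in 70.5% of all genes.

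By size of value, the largest gains were in Lcn2, the gene of the iron-siderophore carrier lipocalin 2, at 3146, 3203 and 3187 in shLinc, against 1024, 990 and 1015 in shCtrl (1.53 ± 0.035). Ttr, the gene of the thyroid hormone and retinol carrier transthyretin, was at 1352, 1376 and 1371 in shLinc, against 513, 524 and 520 in shCtrl (1.27 ± 0.042). Selenop, which encodes the liver's selenium transport protein, was at 894, 861 and 894 in shLinc, against 386, 387 and 389 in shCtrl (1.06 ± 0.032). Ctnnb1, of beta-catenin, was at 862, 872 and 879 in shLinc, against 440, 446 and 452 in shCtrl (0.84 ± 0.062). All 4 were higher in shLinc. Crip1 (0.55), Mt1 (0.43), mt-Rnr2 (0.24) and mt-Co3 (0.12) completed the 8 largest gains. The largest losses were in Ftl1, the ferritin light chain gene, at 8031, 8182 and 8185 in shLinc, against 10383, 10319 and 10280 in shCtrl (−0.47 ± 0.049). The others were S100a6 (−0.71), the galectin gene Lgals1 (−0.72) and the ribosomal protein genes Rplp1 (−0.43), Rpl41 (−0.49), Rps14 (−0.53), Rpl18 (−0.51) and Rpl8 (−0.44).

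Genes were next grouped into lists by function; the count called in each list reads against the 28.9% of all genes called in each direction. Of 17 tested YAP and TEAD target genes, 10 fell and 2 rose (median log2 fold change −0.36, against 0.01 over all genes). Beside Ccn2 and Ccn1, Ankrd1, a nuclear ankyrin repeat protein gene, was at 107, 115 and 110 in shLinc, against 229, 223 and 217 in shCtrl (−1.13 ± 0.036). The receptor kinase gene Axl was at 302, 299 and 302 in shLinc, against 347, 356 and 358 in shCtrl (−0.36 ± 0.034). Crim1 (−0.99) and Igfbp3 (−1.24) fell also, whereas Ptpn14, whose product holds YAP in the cytoplasm, was at 0.02 and Myof at 0.19, neither called. Of the 18 genes of the Hippo pathway itself, which controls YAP, 6 rose and 3 fell (9 and 1 with no scaling), with the YAP paralog gene Wwtr1 at 0.41 ± 0.056, the factor genes Tead1 at 0.54 ± 0.14 and Tead4 at −0.38 ± 0.054, and Yap1 not called at −0.042. Sav1, a scaffold of the Hippo kinases, was called at 0.17, but at −0.087 and not called once transcript length and GC content were corrected for.

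A TEAD site was searched as GGAATG on both strands in the RefSeq promoters of GRCm38.p6, from 250 bases before to 50 after a gene's start. It was present in 7 of the 15 list members with a promoter (46.7%), against 16.6% of 27025 genes; a match is a description of letters. The promoter of Ccn1, shown because it had the largest decrease among the members with a match, lies at chr3:145649936-145650235 on the minus strand, with the match in capitals, here on the opposite strand.
Ccn1: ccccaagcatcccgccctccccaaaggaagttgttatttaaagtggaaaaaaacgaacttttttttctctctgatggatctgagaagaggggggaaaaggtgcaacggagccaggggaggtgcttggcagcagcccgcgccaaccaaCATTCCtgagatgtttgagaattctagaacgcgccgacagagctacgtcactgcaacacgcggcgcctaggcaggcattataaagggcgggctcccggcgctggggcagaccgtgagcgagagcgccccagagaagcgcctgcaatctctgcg

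Actin and SRF target genes went the same way: 12 of 18 fell and 1 rose (median −0.35). The actin-bundling gene Tagln2 was at 486, 505 and 493 in shLinc, against 834, 844 and 833 in shCtrl (−0.88 ± 0.026). Cytoplasmic actin Actb was at 1578, 1580 and 1633 in shLinc, against 2172, 2172 and 2186 in shCtrl (−0.57 ± 0.033). Actg1 was at 1174, 1195 and 1192 in shLinc, against 1497, 1512 and 1544 in shCtrl (−0.48 ± 0.031). Zyx, of focal adhesions, was at −0.52 ± 0.032 and Cnn2, a calponin gene, at −0.73 ± 0.037. Not called were Flna (−0.47), Actn4 (−0.031), Myh9 (−0.0046) and Vcl (0.11). Of 12 TGF beta target genes, 6 fell and 2 rose. Pmepa1 (−0.60) and Smad7 (−0.54), feedback inhibitors of the pathway, fell, and Id2 rose (0.61). Of 12 integrin genes, 7 fell and 2 rose, with Itga7 at 16, 15 and 15 in shLinc, against 30, 31 and 29 in shCtrl (−1.04 ± 0.057). Itga3 was at 116, 113 and 115 in shLinc, against 188, 193 and 193 in shCtrl (−0.86 ± 0.059). Both encode chains of laminin receptors.

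Growth factor feedback genes showed larger shifts. Of 13 MAP kinase feedback and ETV genes, 9 fell and 2 rose (median −0.72). Phlda1 was at 27, 27 and 28 in shLinc, against 72, 69 and 69 in shCtrl (−1.45 ± 0.046). Epha2, an ephrin receptor, was at 33, 33 and 33 in shLinc, against 64, 62 and 62 in shCtrl (−1.03 ± 0.044). Dusp6, whose product dephosphorylates ERK, was at 40, 37 and 40 in shLinc, against 57, 59 and 62 in shCtrl (−0.72 ± 0.042). Its relative Dusp5 was at −1.42 ± 0.052 and Spry2, a feedback inhibitor of receptor signals, at −0.77 ± 0.079; Dusp1 (−0.017) and Spred2 (−0.088) were not called. Of 14 AP-1 and EGR immediate early genes, 8 fell and 3 rose (median −0.35). Myc, the growth regulator, was at 41, 41 and 42 in shLinc, against 98, 97 and 97 in shCtrl (−1.34 ± 0.039). Atf3 was at 9, 9 and 9 in shLinc, against 25, 26 and 23 in shCtrl (−1.47 ± 0.065). Junb was at 249, 238 and 239 in shLinc, against 362, 347 and 338 in shCtrl (−0.65 ± 0.046). Ier3 fell (−1.06 ± 0.057). Egr1, an immediate early factor, went the other way and was at 34, 31 and 35 in shLinc, against 20, 19 and 19 in shCtrl (0.63 ± 0.04). The AP-1 site TGANTCA was in none of the 14 list promoters searched, against 8.97% of all promoters, which says only that these letters are not in that window.

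Cell cycle genes were lower in some groups and mixed in others. Ccnd1, cyclin D1 of the entry into the cycle, was at 238, 234 and 236 in shLinc, against 652, 654 and 658 in shCtrl (log2 fold change −1.59 ± 0.036 SE, limma adjusted p = 3.37e-15). Among the 14 tested cyclin D and CDK inhibitor genes, 7 fell and 5 rose: the inhibitor genes Cdkn2b (−1.31 ± 0.088) and Cdkn1a (−0.71 ± 0.035) fell, and the inhibitor genes Cdkn2c (0.76 ± 0.066) and Cdkn1b (0.65 ± 0.06) rose. Of 18 DNA replication genes, 17 fell and none rose (median −0.54). The replicative helicase gene Mcm5 was at 122, 123 and 120 in shLinc, against 183, 182 and 183 in shCtrl (−0.71 ± 0.027). Mcm2 was at −0.74 ± 0.045, Mcm7 at −0.53 ± 0.025, thymidine kinase Tk1 at −0.72 ± 0.044 and Uhrf1, which keeps DNA methylation in place, at −0.76 ± 0.049. Rrm1, of ribonucleotide reductase, was not called at 0.052. Mitosis genes were mixed, with 7 lower and 4 higher of 17 and a median of −0.065 that became 0.061 with no scaling, where 3 were lower and 6 higher; Birc5 was at −0.47 ± 0.043, Aurkb at −0.50 ± 0.059 and Kif11, a spindle motor, at 0.47 ± 0.069. Of 16 p53 target genes, 9 fell and 3 rose, with Aen at 71, 76 and 72 in shLinc, against 132, 132 and 136 in shCtrl (−0.99 ± 0.037), Plk2 at −0.86 ± 0.047, Phlda3 at −0.81 ± 0.056 and Btg2, the opposite way, at 0.56 ± 0.048.

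Most ATF4 target genes, which serve amino acid uptake and synthesis, were lower: 26 of 29 fell and 2 rose (median −0.80), and 22 fell when a change beyond 1.2-fold was tested. That test called 20.6% of all genes in either direction, 952 higher and 1102 lower. Trib3, a pseudokinase gene that feeds back on ATF4, was at 36, 37 and 38 in shLinc, against 103, 103 and 101 in shCtrl (log2 fold change −1.57 ± 0.07 SE, limma adjusted p = 8.75e-12). Asns, of asparagine synthesis, was at 247, 257 and 250 in shLinc, against 432, 434 and 431 in shCtrl (−0.91 ± 0.029). Shmt2, of mitochondrial serine and folate metabolism, was at 181, 186 and 185 in shLinc, against 330, 346 and 342 in shCtrl (−1.01 ± 0.033). All 3 genes were lower in shLinc. Mthfd2, of the same folate pathway, was at 54, 55 and 52 in shLinc, against 101, 104 and 103 in shCtrl (−1.05 ± 0.041). The leucine transporter gene Slc7a5 was at 106, 102 and 105 in shLinc, against 196, 197 and 202 in shCtrl (−1.05 ± 0.042). The related factor Atf5 was at 325, 317 and 317 in shLinc, against 496, 479 and 480 in shCtrl (−0.73 ± 0.03). Stc2 was not called (0.086). Of the 20 cytosolic aminoacyl tRNA synthetase genes, which load amino acids on tRNAs, 17 fell and none rose (median −0.45). Wars was at 88, 88 and 91 in shLinc, against 147, 140 and 148 in shCtrl (−0.82 ± 0.037), Cars at −0.66 ± 0.03, Gars at −0.56 ± 0.027 and Aars at −0.50 ± 0.031. Qars (−0.039), Dars (−0.048) and Eprs (−0.13) were not called. Without doxycycline 18 of the 20 synthetase genes were already lower in shLinc and none higher (median −0.57).

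The core of the ATF4 response element was searched as TGATGNAA on both strands of the same promoters. It was present in 9 of 27 ATF4 target genes with a promoter (33.3%), against 4.51% of all 27025 genes, and of the 23 members that fell and had a promoter, 8 held it. The promoters of Trib3 and Chac1, a glutathione-degrading enzyme gene (−1.26 ± 0.084), are shown because these had the largest decreases among the members with a match. Capitals mark the match, on the opposite strand in both. Trib3 lies on the minus strand at chr2:152344011-152344310, and Chac1 on the plus strand at chr2:119350992-119351291.
Trib3: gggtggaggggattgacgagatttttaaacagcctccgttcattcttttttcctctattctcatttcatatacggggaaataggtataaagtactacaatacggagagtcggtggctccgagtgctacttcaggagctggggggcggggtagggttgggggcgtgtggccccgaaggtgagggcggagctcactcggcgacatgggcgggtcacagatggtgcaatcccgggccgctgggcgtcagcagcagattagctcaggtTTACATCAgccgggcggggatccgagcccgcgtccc
Chac1: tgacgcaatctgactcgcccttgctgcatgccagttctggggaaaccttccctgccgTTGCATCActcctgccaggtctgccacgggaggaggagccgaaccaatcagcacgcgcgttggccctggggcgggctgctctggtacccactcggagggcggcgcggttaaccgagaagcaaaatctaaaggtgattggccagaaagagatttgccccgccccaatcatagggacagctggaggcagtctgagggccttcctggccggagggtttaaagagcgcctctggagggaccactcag

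Genes of the protein-making machinery were lower in shLinc, and their lists were lower without doxycycline too. Medians there were −0.73 for ribosome biogenesis, −0.36 for cytosolic and −0.37 for mitochondrial ribosomal protein genes. Without doxycycline 74 of 80 cytosolic ribosomal protein genes were lower and none higher. Of the 78 mitochondrial ones, 63 were lower and 1 higher in that state. Of 18 ribosome biogenesis genes, 17 fell and none rose (median −0.64): Nop56, a core protein of snoRNA particles, was at 130, 118 and 131 in shLinc, against 256, 251 and 248 in shCtrl (−1.12 ± 0.039). Rrp9 was at 27, 25 and 24 in shLinc, against 60, 57 and 53 in shCtrl (−1.25 ± 0.076). The nucleolar methyltransferase gene Fbl was at 195, 195 and 188 in shLinc, against 291, 282 and 287 in shCtrl (−0.70 ± 0.04). Bop1 (−0.87), Mybbp1a (−1.06) and Rrp12 (−1.06) fell as well, and Polr1a was not called (−0.22). Of 80 tested cytosolic ribosomal protein genes, 61 fell and 1 rose (median −0.30, and −0.18 with no scaling). Rplp0 was at 2821, 2865 and 2889 in shLinc, against 3374, 3404 and 3430 in shCtrl (−0.38 ± 0.041). Of 78 mitochondrial ribosomal protein genes, 53 fell and 2 rose (median −0.30, and −0.18 with no scaling). Mrps18b was at 96, 95 and 90 in shLinc, against 140, 133 and 143 in shCtrl (−0.69 ± 0.04). Respiratory chain and ATP synthase genes were mixed, with 27 lower and 13 higher of 80 and a median of −0.076 that was 0.050 with no scaling, where 17 were lower and 31 higher; after correction for length and GC content 16 were lower and 25 higher. Ribosomal protein genes have many near-identical pseudogene copies between which reads could be split, so single values in that list are uncertain. Over all genes, shorter transcripts were lower on median; after correction for length and GC content, 52 of the cytosolic and 53 of the mitochondrial ribosomal protein genes fell.

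Cholesterol synthesis and uptake genes, the targets of SREBP2, moved as a group: 24 of 25 fell and none rose (median −0.44). Fdps, which makes farnesyl diphosphate, was at 230, 238 and 227 in shLinc, against 383, 399 and 391 in shCtrl (log2 fold change −0.88 ± 0.042 SE, limma adjusted p = 2.64e-11). Lss, the cyclase that makes lanosterol, was at 19, 19 and 20 in shLinc, against 33, 34 and 35 in shCtrl (−0.90 ± 0.05). Its follower Cyp51 was at 88, 85 and 85 in shLinc, against 127, 132 and 130 in shCtrl (−0.71 ± 0.026). All 3 enzymes are steps on the way to sterols. Msmo1 (−0.69), Ebp (−0.86) and Fdft1 (−0.58), further enzymes of the pathway, fell too, and Stard4, a sterol carrier gene, was not called (0.01). The difference between hairpins was called more negative after withdrawal than without doxycycline for 20 of the 25 genes, against 9.16% of all genes. Genes of fatty acid and triglyceride synthesis were divided, with 6 higher and 3 lower of 18. Gpam, of glycerolipid synthesis (0.53 ± 0.07), Lpin1 (0.68 ± 0.11) and Me1, malic enzyme (0.27 ± 0.032), rose, and Agpat2 fell (−0.31 ± 0.055). Not called were Fasn (−0.28), Scd1 (−0.072), Srebf1 (−0.067) and Acaca (0.0049).

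The CCAAT box, at which NF-Y binds beside SREBP2, was searched as CCAAT on both strands and was in 16 of the 17 cholesterol genes with a promoter (94.1%), against 41.1% of all genes. A sterol regulatory element of the letters TCACNCCAC was in 1 of the 17 (5.88%), Hmgcs1, against 1.44% of all genes. In the Hmgcs1 window the sterol element overlapped no CCAAT box. Shown are Hmgcs1 (−0.22 ± 0.056), as the only member with the sterol element, in capitals, on the plus strand of chr13:119690101-119690400, and Lss, with the largest decrease of the members with a CCAAT box, in capitals, here on the opposite strand, on the plus strand of chr10:76531355-76531654.
Hmgcs1: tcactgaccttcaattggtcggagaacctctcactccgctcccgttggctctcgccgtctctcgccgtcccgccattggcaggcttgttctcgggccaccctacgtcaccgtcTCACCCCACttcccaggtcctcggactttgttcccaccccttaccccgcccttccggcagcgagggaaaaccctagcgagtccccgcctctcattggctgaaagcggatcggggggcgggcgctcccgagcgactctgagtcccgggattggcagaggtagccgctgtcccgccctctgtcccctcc
Lss: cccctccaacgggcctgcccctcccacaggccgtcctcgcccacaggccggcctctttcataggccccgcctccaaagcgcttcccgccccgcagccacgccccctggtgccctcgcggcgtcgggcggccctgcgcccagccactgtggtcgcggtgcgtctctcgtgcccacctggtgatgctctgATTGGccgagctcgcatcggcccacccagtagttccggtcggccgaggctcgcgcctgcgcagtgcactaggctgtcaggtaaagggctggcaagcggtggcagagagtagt

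Fat burning genes were higher in shLinc. Of 21 fatty acid oxidation and PPAR alpha target genes, 16 rose and 1 fell (median 0.36). Without doxycycline 18 were already higher and 1 lower (median 0.43). Acot1, an acyl-CoA thioesterase, was at 290, 280 and 291 in shLinc, against 122, 122 and 116 in shCtrl (1.12 ± 0.04). Acadm, the medium-chain dehydrogenase, was at 37, 36 and 36 in shLinc, against 19, 19 and 22 in shCtrl (0.71 ± 0.053). The pyruvate dehydrogenase kinase gene Pdk4 was at 9, 10 and 9 in shLinc, against 2, 3 and 3 in shCtrl (1.40 ± 0.13). Plin2, of lipid droplets, fell (−0.39 ± 0.029), and Ppara (−0.12) and Angptl4 (0.029) were not called. Of 14 FoxO target genes, 12 rose and 1 fell (median 0.81): Depp1 was at 71, 70 and 67 in shLinc, against 29, 30 and 27 in shCtrl (1.12 ± 0.063). Ccng2 was at 18, 18 and 18 in shLinc, against 8, 6 and 6 in shCtrl (1.202 ± 0.086), Bcl6 at 0.94 ± 0.066, Bcl2l11 at 0.94 ± 0.1 and Sesn3 at 0.81 ± 0.1, with Cited2 not called (0.031). The fall was in Irs2, the insulin receptor substrate gene (−0.56 ± 0.097). Of 27 lysosome and autophagy genes, 19 rose and 2 fell (median 0.26). Gabarapl1, of autophagosomes, was at 143, 142 and 136 in shLinc, against 65, 68 and 65 in shCtrl (0.95 ± 0.035). The lysosome membrane gene Lamp2 was at 288, 288 and 289 in shLinc, against 156, 156 and 160 in shCtrl (0.74 ± 0.027). Flcn (0.75), Psap (0.45) and Ctsa (0.44) rose, Sqstm1 fell (−0.28), and the factor gene Tfeb was not called (0.11).

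Sugar metabolism was divided. Of 17 glycolysis genes, 8 fell and 5 rose, and the median of −0.15 was 0.020 after correction for length and GC content, where 5 fell and 7 rose. Ldha, lactate dehydrogenase, was at 577, 601 and 588 in shLinc, against 813, 801 and 799 in shCtrl (−0.58 ± 0.033). Pkm, pyruvate kinase, was at 1801, 1858 and 1802 in shLinc, against 2163, 2187 and 2196 in shCtrl (−0.39 ± 0.027); Gapdh was not called (−0.15). Of 5 tested glucose-responsive genes of the MondoA and ChREBP pair, Txnip and its relative Arrdc2 (0.61 ± 0.047) rose and Mlx (−0.49 ± 0.07) and Pklr (−0.28 ± 0.05) fell; the E-box CACGTG was in 3 of 8 promoters, against 8.09% of all. HIF targets were also divided, 4 higher and 4 lower of 9, with Ndrg1 at 0.63 ± 0.026 and Slc2a1 at −0.39 ± 0.047.

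Liver identity genes were higher on balance. Of 18 tested hepatocyte transcription factor genes, 14 rose and 1 fell (median 0.29). Foxa1, a pioneer factor like FOXA2, was at 16, 16 and 16 in shLinc, against 6, 8 and 6 in shCtrl (log2 fold change 1.04 ± 0.098 SE, limma adjusted p = 1.27e-07). Foxa3 was at 25, 23 and 24 in shLinc, against 12, 11 and 14 in shCtrl (0.79 ± 0.092). Onecut1 was at 9, 9 and 8 in shLinc, against 4, 4 and 4 in shCtrl (0.84 ± 0.14). The bile acid receptor gene Nr1h4 (0.34 ± 0.038) and Onecut2 (0.55 ± 0.1) rose, and Klf15 (−0.036) and Rxra (0.13) were not called. Of 10 tested hepatocyte plasma protein genes, 8 rose and 1 fell (median 0.67): after Agt and Ttr came Gc, the vitamin D binding protein, at 350, 346 and 358 in shLinc, against 183, 175 and 192 in shCtrl (0.81 ± 0.034). Serpina1a, an antitrypsin gene with near-identical copies, was at 25, 25 and 24 in shLinc, against 12, 13 and 10 in shCtrl (0.91 ± 0.13). Trf, transferrin, rose (0.23 ± 0.029). Rbp4, the retinol carrier, was at 232, 225 and 237 in shLinc, against 301, 296 and 298 in shCtrl (−0.49 ± 0.047). A further 10 plasma protein genes were below the mean of 3, among them Ahsg and Fetub, listed at 0 in all 6 libraries. The labelled line was checked by 12 genes, 10 of which were tested, and of these 6 rose and 3 fell; Alb was called at 0.10, Ttr, Trf and Foxa1 rose as given above, the keratin genes Krt8 (−0.60 ± 0.03) and Krt18 (−0.74 ± 0.034) were among those that fell, and the mature hepatocyte genes Cps1 and Tat had no value above 1.

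Of the 21 acute phase protein genes, 8 were tested, and all 8 of those rose (median 0.83); the 13 others stayed below the mean of 3. Hp, haptoglobin, was at 140, 144 and 144 in shLinc, against 41, 45 and 45 in shCtrl (1.56 ± 0.1). Lbp, the lipopolysaccharide binding protein, was at 648, 664 and 664 in shLinc, against 339, 351 and 358 in shCtrl (0.79 ± 0.03). Cp, ceruloplasmin, was at 223, 225 and 230 in shLinc, against 115, 119 and 120 in shCtrl (0.81 ± 0.074). Apcs was at 11, 12 and 8 in shLinc, against 6, 5 and 5 in shCtrl (0.71 ± 0.14). Serpina3g was at 9, 10 and 11 in shLinc, against 5, 5 and 4 in shCtrl (0.85 ± 0.21). Among cytokine receptor and signalling genes, the interleukin 1 receptor gene Il1r1 was at 14, 14 and 14 in shLinc, against 3, 3 and 4 in shCtrl (1.69 ± 0.085). Stat3 was at 36, 36 and 39 in shLinc, against 22, 22 and 23 in shCtrl (0.58 ± 0.084), while Cebpb, a factor of the acute phase response, was lower (−0.49 ± 0.072) and Socs3, a feedback inhibitor of STAT3, was not called (0.11). Of 12 tested complement and coagulation genes, 6 rose and 3 fell: C3, the central complement component, was at 619, 631 and 623 in shLinc, against 225, 231 and 234 in shCtrl (1.31 ± 0.11). Cfi was at 29, 29 and 29 in shLinc, against 9, 9 and 10 in shCtrl (1.42 ± 0.086), with Cfb at 0.33 ± 0.044, while Serpind1, heparin cofactor II, was at −1.21 ± 0.11 and Masp1 at −0.65 ± 0.064.

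Bile duct and epithelial genes were mostly higher: of 9 tested, 7 rose and 2 fell. Their log2 fold changes ran from −0.85 to 2.53, and beyond 1.2-fold 6 were higher and 2 lower. Spp1, osteopontin, was at 299, 304 and 313 in shLinc, against 107, 110 and 113 in shCtrl (1.34 ± 0.033). Sox9, a factor of the bile duct lineage, was at 58, 55 and 57 in shLinc, against 20, 19 and 18 in shCtrl (1.41 ± 0.056). Cd24a was at 798, 793 and 809 in shLinc, against 459, 455 and 445 in shCtrl (0.69 ± 0.032), beside Ehf and Mmp7 above. The keratin gene Krt19 went down, at 903, 889 and 884 in shLinc, against 1164, 1149 and 1171 in shCtrl (−0.51 ± 0.034). Of 8 mesenchymal genes, 3 fell and 1 rose: Vim, vimentin, was at 726, 720 and 718 in shLinc, against 958, 966 and 959 in shCtrl (−0.54 ± 0.028). Snai2 was at 2, 2 and 3 in shLinc, against 8, 9 and 9 in shCtrl (−1.64 ± 0.12), Cdh2 at −0.37 ± 0.049 and Cd44 at 0.48 ± 0.058. Among Notch and Wnt genes, Hes1 (0.74 ± 0.073), Glul (0.54 ± 0.025) and Rnf43 (0.81 ± 0.1) rose and Jag1 fell (−0.65 ± 0.064). Matrix proteases were split, 10 lower and 6 higher of 19 around a median of −0.10 that was 0.023 with no scaling. Plaur, the urokinase receptor, was at 52, 50 and 51 in shLinc, against 93, 95 and 94 in shCtrl (−0.99 ± 0.042), Adam12 was at −1.42 ± 0.11 and Adamts1 at 1.17 ± 0.069. Markers of other liver cells were at or near 0: all 10 macrophage, 10 endothelial and 10 stellate cell genes were below the mean of 3, with no value above 3, and Ptprc, Adgre1, Pecam1, Cdh5, Lrat, Des and Col1a1 were listed at 0 in all 6 libraries.

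Inflammatory signals did not share 1 direction. Of 11 tested chemokine and granulocyte growth factor genes, 6 fell and 4 rose. Ccl2, the monocyte attractant, was at 731, 733 and 741 in shLinc, against 1335, 1275 and 1218 in shCtrl (−0.92 ± 0.055). Cxcl1, the neutrophil attractant, was at 355, 351 and 337 in shLinc, against 479, 465 and 464 in shCtrl (−0.56 ± 0.057). Cxcl2 was at 20, 19 and 19 in shLinc, against 12, 9 and 8 in shCtrl (0.83 ± 0.097). Cxcl3 was at 52, 54 and 54 in shLinc, against 34, 33 and 31 in shCtrl (0.57 ± 0.067). Csf1, of macrophage growth, fell (−0.83 ± 0.054). Of 14 NF-kB genes, 7 fell and 4 rose. The subunit gene Nfkb2 was at 132, 133 and 128 in shLinc, against 201, 205 and 207 in shCtrl (−0.76 ± 0.026). Relb, another subunit (−0.91 ± 0.05), and the inhibitor genes Nfkbib (−0.82 ± 0.048), Nfkbie (−0.73 ± 0.044) and Tnfaip3 (−0.75 ± 0.056) fell. The adhesion receptor gene Vcam1 was at 67, 69 and 68 in shLinc, against 31, 29 and 28 in shCtrl (1.06 ± 0.04). Interferon-induced genes, 5 higher and 2 lower of 10, included Ifit2 at 8, 8 and 8 in shLinc, against 4, 4 and 4 in shCtrl (0.74 ± 0.077), Irf1 at 0.35 ± 0.044 and Isg20 at −0.57 ± 0.057.

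Detoxifying enzymes were mostly higher. Of 24 tested conjugation genes, 17 rose and 5 fell (median 0.58). Gstm1, a glutathione transferase, was at 752, 805 and 770 in shLinc, against 380, 393 and 391 in shCtrl (0.87 ± 0.033). Gstt1 was at 103, 102 and 104 in shLinc, against 27, 32 and 29 in shCtrl (1.66 ± 0.079). Gsta4 was at 129, 134 and 132 in shLinc, against 54, 58 and 55 in shCtrl (1.10 ± 0.043). Sult1d1, a sulfotransferase, was at 321, 311 and 329 in shLinc, against 104, 101 and 99 in shCtrl (1.52 ± 0.056). Gsto1 went down, at 380, 369 and 381 in shLinc, against 598, 587 and 566 in shCtrl (−0.76 ± 0.038). These families have close copies, so reads may be shared between members. Of 60 cytochrome P450 family genes, 55 stayed below the mean of 3; of the 5 tested, Cyp2c68 (1.58 ± 0.14), Cyp2d22 (0.77 ± 0.15) and Cyp2s1 (0.65 ± 0.1) rose and Cyp3a13 (−0.97 ± 0.065) and Por, their electron donor (−0.31 ± 0.035), fell. Of 10 aldo-keto reductase genes, 6 rose and 1 fell, with Akr1b7 at 95, 100 and 100 in shLinc, against 23, 21 and 26 in shCtrl (1.91 ± 0.071) and Akr1c19 at 0.85 ± 0.055; the fall of Akr1c13 (−0.11) became 0.016 with no scaling. NRF2 targets were divided, 7 lower and 6 higher of 17, with a median of −0.0080 that was 0.12 with no scaling, where 2 were lower and 9 higher. Gclm, of glutathione synthesis, was at 104, 123 and 112 in shLinc, against 72, 76 and 75 in shCtrl (0.47 ± 0.051). Nfe2l2 itself was at 0.27 ± 0.038 and Pgd at −0.35 ± 0.03. Metal genes were higher in 6 and lower in 1 of 10, with the metallothionein Mt2 at 0.24 ± 0.052 and the iron exporter Slc40a1 at 50, 52 and 53 in shLinc, against 31, 32 and 31 in shCtrl (0.58 ± 0.036). Clock genes were divided, 5 lower and 4 higher of 13, or 2 lower and 4 higher with no scaling and with median-of-ratios scaling, with Nfil3 at 15, 14 and 15 in shLinc, against 35, 36 and 36 in shCtrl (−1.35 ± 0.041) and Bhlhe40 at −1.19 ± 0.056.

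Since the series concerns nuclear speckles, their genes were listed too. Of 22 SR protein and speckle genes, 6 rose and 6 fell (median 0.032, and −0.030 after correction for length and GC content); with no scaling 8 rose and 3 fell. Son, the scaffold of speckles, was at 38, 35 and 38 in shLinc, against 25, 25 and 25 in shCtrl (0.42 ± 0.04). Srsf7, a splicing factor, was at 91, 88 and 91 in shLinc, against 138, 130 and 134 in shCtrl (−0.69 ± 0.05). Srsf5 (0.41 ± 0.043) and Pnn (0.40 ± 0.056) rose, Srsf2 (−0.25 ± 0.048) and Srsf3 (−0.26 ± 0.049) fell, and the second scaffold gene Srrm2 was not called (0.15). Of 17 genes of the TREX export complex, 8 fell and 4 rose, around a median of −0.048 that was 0.078 with no scaling, where 5 fell and 6 rose: Nxt1 was at 38, 39 and 41 in shLinc, against 58, 53 and 54 in shCtrl (−0.60 ± 0.056). Thoc2 was at 9, 8 and 7 in shLinc, against 4, 4 and 5 in shCtrl (0.64 ± 0.12), Ddx39b at −0.30 ± 0.037 and Thoc5 at −0.34 ± 0.046. Of 15 long noncoding and snoRNA host genes, 2 rose, 6 fell and 7 were not called (median −0.27). The 2 that rose were Malat1 and Neat1. Malat1, which resides in speckles, was at 215, 180 and 204 in shLinc, against 104, 104 and 105 in shCtrl (0.80 ± 0.088). Neat1, of paraspeckles, was at 221, 220 and 214 in shLinc, against 110, 113 and 111 in shCtrl (0.84 ± 0.05). The 6 that fell included host genes of small nucleolar RNAs, Snhg15 at 8, 8 and 10 in shLinc, against 18, 20 and 17 in shCtrl (−1.12 ± 0.16), Snhg5 at −0.59 ± 0.075 and Gas5 at −0.29 ± 0.072.

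Other lists were smaller in size or mixed. Of 19 endoplasmic reticulum chaperone genes, 9 rose and 6 fell (12 and 3 with no scaling), with Hsp90b1 at 0.34 ± 0.034 and Hspa5, the chaperone BiP, at −0.28 ± 0.027. Of 13 heat shock factor targets, 4 rose and 6 fell, and with no scaling 6 rose and 5 fell. The small chaperone gene Hspb1 was at 242, 230 and 235 in shLinc, against 145, 138 and 143 in shCtrl (0.60 ± 0.05), and the mitochondrial chaperone genes Hspd1 (−0.48 ± 0.026) and Hspe1 (−0.65 ± 0.073) fell. Among 5 LXR and sterol efflux genes 3 rose and 2 fell, with Apoe at 0.56 ± 0.18 and Nr1h3, of the receptor LXR alpha, at −0.42 ± 0.051. Pcx, pyruvate carboxylase, fell (−0.83 ± 0.079), in a list of 5 gluconeogenesis and glycogen genes with 2 higher and 2 lower. Of 10 IGF and insulin axis genes, 1 rose and 4 fell, with Inhbb, an activin subunit, at 14, 13 and 14 in shLinc, against 40, 39 and 39 in shCtrl (−1.58 ± 0.041) and the insulin receptor gene Insr at 0.45 ± 0.1. Of 15 urea cycle and amino acid breakdown genes, 3 rose and 7 fell (median −0.12), but 4 rose and 4 fell with no scaling (median −0.0003); among them was Prodh, proline dehydrogenase, at 9, 9 and 8 in shLinc, against 15, 17 and 16 in shCtrl (−0.93 ± 0.075). Of 14 collagen, laminin and matrix glycoprotein genes, 5 rose and 2 fell: Col4a5 rose (0.69 ± 0.11), the laminin chain Lamb3 (−0.50 ± 0.056) fell, and fibronectin Fn1 was not called (0.49). MHC class I genes were 2 higher and 2 lower of 8 (5 and 1 with no scaling), with H2-D1 at −0.26 ± 0.038. Apolipoprotein genes were 1 higher and 1 lower of 4. Bile acid genes were 2 higher and none lower of 5, with Abcc3 at 0.36 ± 0.073. Genes listed under interleukin 6 and STAT3 signalling were 4 higher and 1 lower of 10. The largest value in that list, 1.69, is that of the interleukin 1 receptor gene Il1r1. Of 16 tested histone genes, 6 rose and 1 fell, with H1f2 at 0.66 ± 0.076 and H2ac24, which has near-identical copies, at −0.86 ± 0.087. The mitochondrially encoded mRNAs were 3 higher and 2 lower of 13, around a median of −0.031. With no scaling 7 were higher and 1 lower (median 0.097), and after correction for length and GC content none was higher and 5 were lower (median −0.075), so that list has no sure direction.

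**Figure D2:**
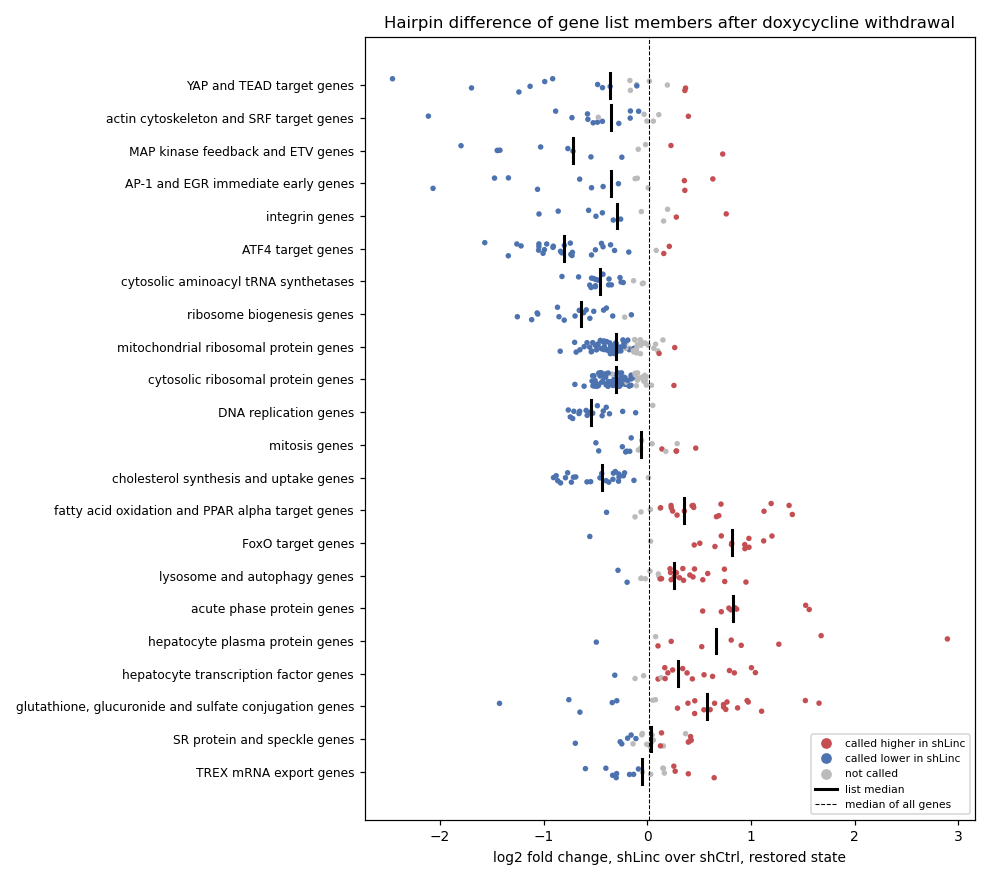
Log2 fold change of shLinc over shCtrl in the restored state (horizontal axis) for members of 22 lists, 1 point per gene, coloured by call; black bars are list medians and the dashed line is the median of all genes, 0.012. The ATF4 list (median −0.80) and the ribosome biogenesis list (−0.64) lie to the left, and the FoxO (0.81) and acute phase (0.83) lists to the right.

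The restored hairpin difference was then set beside that of the other states. Of the 5770 restored calls, 4526 (78.4%) were called in the same direction without doxycycline and 195 (3.38%) in the opposite direction, and 1274 (22.1%) were called in the same direction with doxycycline and 2077 (36.0%) in the opposite one. Of the genes called without doxycycline, 6521 in all, the shared same-direction calls were 69.4%, and of the 5139 called with it, 24.8%. The states are separate libraries, and the restored libraries enter both of the tests that follow. The difference of the differences was tested directly: 1953 genes, 19.6%, changed between the restored and the untreated comparison, 1039 of them upward (10.4%) and 914 downward (9.16%), and 5918, 59.3%, between the restored and the doxycycline comparison, 3057 upward (30.6%) and 2861 downward (28.7%). These splits moved with scaling: median-of-ratios scaling gave 1405 upward and 733 downward against the untreated comparison, and no scaling gave 3684 upward and 2138 downward against the doxycycline comparison. The first untreated shCtrl library stood apart from its replicates, and without it 2565 genes changed between the restored and the untreated comparison. Of the 286 genes called and changed 2-fold after withdrawal, 152 differed from the untreated comparison and 250 from the doxycycline comparison.

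Among the genes with the largest log2 fold changes, some stood near their value without doxycycline and others far from it. Mmp7 was at 2.53 after withdrawal and 2.51 without doxycycline, and Ppp1r1b at 2.78 and 2.65 (differences 0.017 and 0.14, neither called). The differences that moved most upward were those of Slc17a1 (2.47, adjusted p = 2.39e-06), Hp (2.22, adjusted p = 1.74e-08), C4b (2.10), Spp1 (1.89, adjusted p = 4.18e-14), Adgrg1 (1.86) and Ptgds (1.76), by limma over all genes. Spp1 was at 208, 220 and 216 in shLinc libraries against 280, 289 and 286 in shCtrl libraries without doxycycline, below the control there and above it after withdrawal; Hp did the same, at 67, 68 and 61 in shLinc libraries against 96, 91 and 93 in shCtrl libraries without doxycycline. Those that moved most downward were Csf2 (−2.81), Cxcl5 (−2.54, adjusted p = 1.20e-11), Akr1b7 (−2.29, adjusted p = 6.76e-11), Csf3 (−1.98), the small nucleolar RNA Snord43 (−1.94) and Cxcl1 (−1.93, adjusted p = 3.23e-11). Cxcl5 without doxycycline was at 547, 560 and 560 in shLinc libraries against 65, 63 and 57 in shCtrl libraries, a wide gap that after withdrawal was 514, 480 and 510 in shLinc, against 342, 338 and 315 in shCtrl. Ccn2 was lower in both comparisons, by more after withdrawal (−2.46 against −0.86; difference −1.60, adjusted p = 2.53e-14). Among lists, against 10.4% of all genes upward and 9.16% downward, plasma protein genes changed upward in 8 of 10 and downward in none. Lysosome genes changed upward in 17 of 27 and downward in 3, DNA replication genes upward in 14 of 18 and downward in none, mitosis genes upward in 10 of 17 and downward in none, and ATF4 targets upward in 16 of 29 and downward in 4. Cholesterol genes changed downward in 20 of 25 and upward in none. With no scaling and with median-of-ratios scaling the larger direction of each of these 6 lists was the same, as for DNA replication genes, 11 and 15 upward. Without doxycycline the list medians were −0.33 for plasma protein, 0.040 for lysosome and −0.31 for mitosis genes. They were −0.81 for DNA replication, −1.03 for ATF4 and −0.11 for cholesterol genes. DNA replication genes were already lower in shLinc there in 18 of 18 and ATF4 targets in 25 of 29. For these 2 lists upward therefore means a smaller gap on median after withdrawal (−0.54 and −0.80). Other lists also changed mostly downward against the untreated comparison. Among them were chemokine and granulocyte growth factor genes (8 of 11 downward, none upward) and NF-kB genes (9 of 14, none upward). AP-1 and EGR genes changed downward in 8 of 14 and upward in 1. The chemokine list median was 1.37 without doxycycline and −0.475 after withdrawal.

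Against the comparison with doxycycline, where Falcor was lower in shLinc, the Falcor difference changed by 1.67 (limma adjusted p = 2.09e-06; 9030622O22Rik), and Ccn2 changed by −2.63 (adjusted p = 7.98e-18). With doxycycline Ccn2 was at 914, 905 and 924 in shLinc libraries against 797, 808 and 820 in shCtrl libraries. The genes named by their size of change upward were Ppp1r1b (2.62), Mmp7 (2.53; listed at 0 in all 6 libraries with doxycycline), Rnase4 (2.53), Aspa (2.52), Isg20 (2.39) and ENSMUSG00002076845, which has no symbol. The last was at 8, 13 and 14 in shLinc, against 0, 0 and 8 in shCtrl after withdrawal, where the groups touched. Downward they were Ccn2, Ly6c1 (−2.48), Slc4a11 (−2.41), Tnnt2 (−2.40), Tigit (−2.40) and Pam16l (−4.20, adjusted p = 0.0342), whose replicates differed widely. Against 28.7% of all genes downward, ATF4 targets changed downward in 24 of 29 and upward in none, ribosome biogenesis genes downward in 15 of 18 and upward in none, DNA replication genes downward in 15 of 18 and upward in 1, and cholesterol genes downward in 21 of 25 and upward in 1. Against 30.6% of all genes upward, fatty acid oxidation genes changed upward in 18 of 21 and downward in 1, lysosome genes upward in 19 of 27 and downward in 2, and plasma protein genes upward in 9 of 10 and downward in none.

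**Figure D3:**
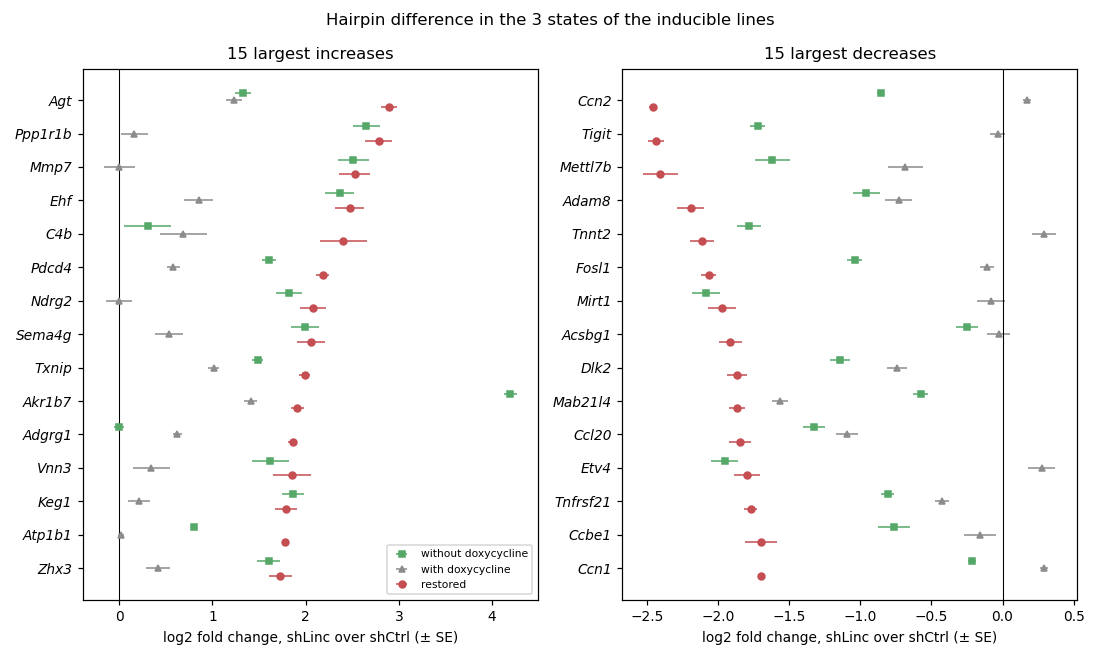
Log2 fold change of shLinc over shCtrl with its SE (horizontal axis) for the 15 largest increases and the 15 largest decreases of the restored state, in each of the 3 states (3 libraries per hairpin and state). Mmp7 stands at 2.53 after withdrawal and 2.51 without doxycycline; Adgrg1 stands at 1.86 after withdrawal and near 0 without doxycycline.

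Finally, the difference moved with properties of the transcript. In quintiles of transcript GC content the median log2 fold change went down step by step, 0.16 in the lowest and −0.10 in the highest, and in quintiles of length it was −0.069 in the shortest and 0.12 in the longest. With doxycycline the GC trend ran the other way, −0.25 in the lowest quintile and 0.13 in the highest, and without doxycycline it was 0.21 in the lowest and −0.083 in the highest. Length and GC were known for 98.2% of tested genes. After correction, 5659 genes were called, 2782 higher and 2877 lower. By chromosome, the median was 0.23 for the 328 tested genes of chromosome 12, of which 173 were higher and 33 lower, and between −0.084 and 0.095 for each of the other chromosomes; corrected, chromosome 12 stood at 0.17. The chromosome 12 median was 0.28 without doxycycline and 0.080 with it. The part of transcript properties or of gene position in any gene's difference was not tested.

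**Figure D4:**
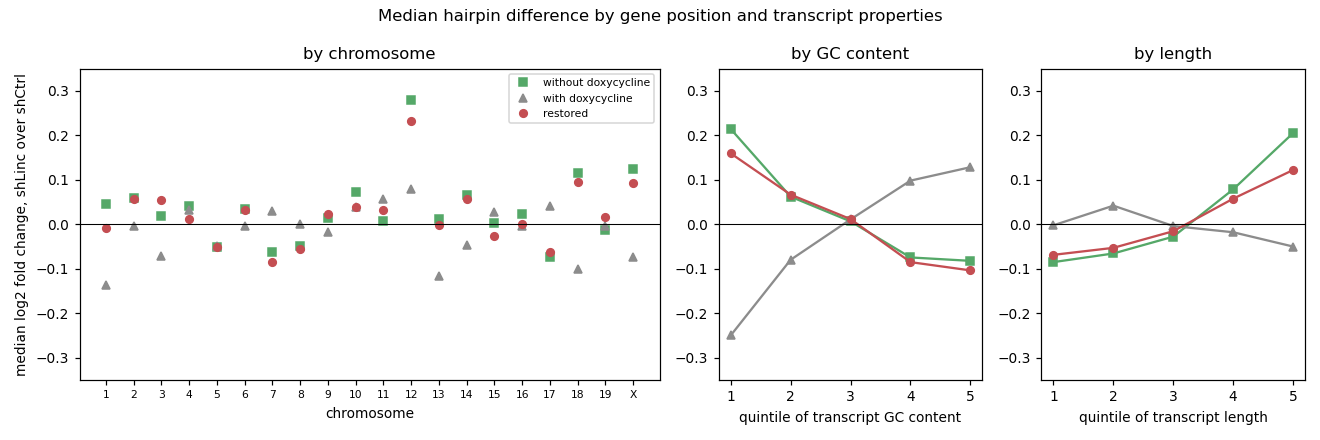
Median log2 fold change of shLinc over shCtrl (vertical axis) by chromosome, by quintile of transcript GC content and by quintile of transcript length, in the 3 states. Chromosome 12 stands above the other chromosomes at 0.23 after withdrawal and 0.28 without doxycycline. The GC trend with doxycycline runs opposite to that of the restored state.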

How the data were processed

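Total RNA of AML12 cells was depleted of ribosomal RNA and sequenced strand-specifically, per the labels' protocols. Tools listed in the submitters' processing notes are DESeq2 and kallisto, with mm10 as the build, and their roles are not given. The deposited values are whole numbers per gene summing to 859568 to 865007 in the 6 libraries, handled as a score: their near-equal sums look like those of a rounded TPM-like unit although a label calls the table counts. What the authors did to make them is not given in the sources used here, sequencing depth is unknown, and no count test was used. All 18 inducible libraries were fitted together with limma 3.58.1 (R 4.3.3) on log2(value divided by a TMM factor, plus a pseudocount of 1), with 1 mean per hairpin and state and a robust, trended variance. A log2 fold change on this scale understates changes of low genes. Genes with a mean of at least 3 over the 6 libraries were tested, and p-values were adjusted by Benjamini-Hochberg over all of them and called below 0.05. The method was run on simulated data with the same spread for all genes and groups and with few changed genes. That run does not cover the unequal spread here (median log2 SD 0.126 in untreated shCtrl, 0.0529 to 0.0605 in the other groups) or the many genes called. Members and gene lists were chosen with earlier results of these data known. The named genes were the 15 largest called log2 changes and the 8 largest called value differences in each direction. With them came the 6 largest called interactions in each direction. All of these needed a highest group mean of 10 or more and no predicted-gene name. The changes also needed no overlap between groups after scaling. Per list, up to 6 called genes with the smallest p were named, and members stated as not called. A few others, such as those whose promoters are printed, were chosen after their values were seen. Sequences are RefSeq promoters. Alternatives covered scaling, pseudocount, filter, a minimum fold, single libraries, a replicate block, and, added after seeing the data, a length and GC correction and 1 left-out library.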

Additional observations from a re-analysis of the deposited data

Results flagged for a closer look

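The hairpin difference after withdrawal differed from that in another state, by the limma test of the difference itself over all 9976 genes, for the following of the leading genes. Against the state without doxycycline, the difference was higher for C4b (2.095), Adgrg1 (1.865) and Agt (1.567, log2 scale), which were higher in shLinc after withdrawal. It was lower for Akr1b7 (−2.287) and Lcn2 (−1.189), which were still higher in shLinc than in shCtrl after withdrawal. It was also lower for Acsbg1 (−1.667), Ccn2 (−1.6), Ccn1 (−1.481), Mab21l4 (−1.291), Adam8 (−1.234) and the AP-1 gene Fosl1 (−1.026), all of them below shCtrl after withdrawal.

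Against the state with doxycycline, Falcor stood apart by 1.673, as did the selenium carrier gene Selenop by 1.969 and the plasma protein gene Ttr by 1.959. The mitochondrial transcripts mt-Co3 (0.51) and mt-Rnr2 (0.4179) moved the same way by less. Ccn2 (−2.63), Tnnt2 (−2.405), Etv4 (−2.073), Ccn1 (−1.987) and Lgals1 (−1.139) moved downward, and so did the ribosomal protein genes Rps14 (−0.7362), Rpl8 (−0.7334), Rpl18 (−0.7249) and Rpl41 (−0.7014).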

How the results depend on the processing

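The count of 5770 genes called after withdrawal was 5738 to 5852 with other pseudocounts, 5817 with median-of-ratios scaling and 5992 with no scaling. It fell to 2054 when a change beyond 1.2-fold was tested, and the 2 differences between states fell to 291 and 3099 in the same test. Leaving out 1 of the 6 restored libraries gave 5215 to 5297 genes after withdrawal, and leaving out 1 of the 12 others 5679 to 6494. Leaving out 1 of the 12 libraries that each comparison of states sets side by side gave 1573 to 2565 for the difference from the untreated state, where 2565 was without the first untreated shCtrl library, and 5617 to 5714 for the difference from the doxycycline state. Without that library, left out after seeing that it stood apart, 6494 genes were called after withdrawal. The log2 fold change of Falcor was 0.64 to 1.0 across settings and 0.80 to 0.969 with 1 restored library left out, and it gave no value at a mean of at least 10. Of 363 named genes, 91 were no longer called beyond 1.2-fold, 16 after the length and GC correction and 14 with no scaling. Of 124 list counts, the number that moved by over 1.5 times was 25 with no scaling, 19 after the length and GC correction, 27 at a mean of at least 10, 71 beyond 1.2-fold, 20 with no filter and 5 with median-of-ratios scaling. Akr1c13 changed sign with no scaling (0.01584, adjusted p = 0.7754), and Sav1 after the length and GC correction (−0.0869, adjusted p = 0.1111); the cause was not tested. Whether replicate numbers pair the samples was looked at through each library's deviation from its group mean. Between hairpins these deviations correlated at 0.0209, −0.0147 and −0.11 for the same number. For unlike numbers the correlations ran from −0.0882 to 0.107. Same-numbered libraries thus did not stand out, but with 3 libraries a group this cannot exclude a pairing. A replicate block gave 5729, 1893 and 5898 calls and a Falcor value of 0.8874.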

Other observations

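Of the 55774 genes in the deposited table, 7 were listed at 0 in all 3 shCtrl libraries and at 3 or more in every shLinc library. No gene showed the reverse. The shLinc libraries also listed more genes above 0 in general, 13402 to 13482 against 12842 to 12878 in shCtrl. Of the 7 genes, 6 had a mean below 3 over the 6 libraries and were not tested, and Gm24130 was the exception. Olfm4, a secreted glycoprotein of epithelia, was at 6, 5 and 5 in shLinc libraries, and Dio1, the deiodinase that activates thyroid hormone, at 4, 4 and 4. Cacna1g, a calcium channel gene, and Il36a, a cytokine gene, were at 3, 3 and 3 each, and Prr29 was at 4, 4 and 3. Gm24130 was at 4, 25 and 6 and Gm25360 at 8, 3 and 3, with replicates that did not lie close together.

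Small nucleolar RNAs made up 55 of the tested genes, of which 1 was called higher and 5 lower, against 28.9% of all genes in each direction. Their median log2 fold change was −0.69 after withdrawal, against 0.065 without doxycycline and 0.19 with it. Most single differences behind that median were not called, and the median transcript length was 125.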
